A study of Mus musculus with 28 samples.

Results

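The miR-23, miR-27 and miR-24 microRNAs (miRNAs) come from a pair of gene clusters, and their mature 3p strands, mmu-miR-23a-3p, mmu-miR-27a-3p, mmu-miR-23b-3p, mmu-miR-27b-3p and mmu-miR-24-3p (the prefix is left off below), are described here across mouse hearts sampled after myocardial infarction (MI) or sham operation. They were picked by name, as 5 of the 1485 mature miRNA names counted in the 28 small RNA libraries. Where a name was listed under several hairpins, the highest of its counts was used. The tissue was left ventricular wall away from the infarct (the remote zone), and the mice came from the outbred stock Hsd:ICR(CD-1). The pups had ligation of the left anterior descending coronary artery, or a sham operation, on postnatal day 7 (P7) or day 1 (P1).

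At 3 days after the operation, 4 libraries each were made from hearts with MI at P7, sham at P7, MI at P1 and sham at P1. The P7 animals were then 10 days old and the P1 animals 4 days old. After 21 days there were 3 libraries for each of the same 4 operations, from animals 28 days old (P7) and 22 days old (P1). Operation day and age at sampling therefore cannot be told apart within a follow-up. All animals shared the strain and were housed with mother and litter, and no group was left without an operation. The labels do not state that each library came from a separate mouse, so the spread that the p-values measure is that between libraries and may be technical. The follow-ups used different library kits, and levels were never compared between them.

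Each cluster is transcribed as a single primary RNA, from which the nuclear enzyme Drosha cuts hairpins and the enzyme Dicer then cuts the mature strands. A mature miRNA guides Argonaute proteins to messenger RNAs that pair with its seed, the bases near its 5′ end. In the cardiovascular system miR-23 and miR-27 are known for regulating blood vessel sprouting in endothelial cells, miR-23a for cardiomyocyte hypertrophy, miR-27 for lipid metabolism, and miR-24 for survival of cardiomyocytes and endothelial cells.

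The mature sequences, from RefSeq (GRCm38.p6), are shown to make clear which members share a seed and how closely the paralogs resemble each other. The table held 4 of the 5 members, and miR-23b-3p is given by name only. Capitals mark the seed, bases 2 to 8.

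miR-23a-3p: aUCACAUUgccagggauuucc
miR-27a-3p: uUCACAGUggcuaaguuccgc
miR-27b-3p: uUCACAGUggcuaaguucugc
miR-24-3p: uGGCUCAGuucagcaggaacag

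The miR-27 pair has the seed UCACAGU, carried by no other of the table's mature names, and differs by 1 base, C19U (miR-27a-3p first, counted from the 5′ end). How the authors' counting assigned reads between such close paralogs is not given in the sources used here, so the split between the a and b members is uncertain. The seed of miR-24-3p, GGCUCAG, was also that of 4 other mature names in the table. MiR-24-3p is encoded in both clusters with the same sequence. Its counts under both hairpins were equal in 27 of the 28 libraries and differed by at most 0.00391% in the other, so the clusters cannot be told apart by miR-24-3p. The opposite strands of its hairpins do differ, after their first 16 bases, and are shown because they separate the loci. The opposite strand of miR-23a is shown because its level and that of miR-23a-3p stood in opposite orders between the infarcted groups at 3 days.

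miR-24-2-5p: gUGCCUACugagcugaaacagu
miR-24-1-5p: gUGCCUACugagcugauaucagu
miR-23a-5p: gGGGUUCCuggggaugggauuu

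The a cluster lies on the plus strand of chromosome 8 (GRCm38), with Mir23a at chr8:84208518-84208592, Mir27a at chr8:84208672-84208758 and Mir24-2 at chr8:84208815-84208921, 404 bases in all. In GENCODE release M21 its first 2 hairpins overlapped no other gene, while Mir24-2 overlapped the edge of the lincRNA Gm26532 and the antisense hairpin Mir3074-2. The b cluster lies on the plus strand of chromosome 13, with Mir23b at chr13:63300484-63300557, Mir27b at chr13:63300712-63300784 and Mir24-1 at chr13:63301208-63301275, over 792 bases. It sits inside the protein-coding gene 2010111I01Rik on the same strand, where Mir23b is intronic and Mir27b and Mir24-1 lie within untranslated exon sequence of annotated transcripts. The b cluster also lies in introns of Fancc on the other strand.

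The deposited counts summed to between 1285821 and 13046126 per library at 3 days and between 18192577 and 26943560 at 21 days. All 5 members were counted in every library, with 571 counts or more. Levels below are in CPM, counts set against library size after TMM scaling, a normalization by the trimmed mean of fold changes between libraries. Cardiac muscle miRNAs (6 in the list, among them miR-133a-3p) summed to between 56742 and 325739 CPM in the libraries, and none of the 6 was at 0 across a group. The sample titles carry number codes, whose meaning the labels do not give, and at 3 days no code was shared between groups. All sham P7 libraries there had the code 1075, so code and group cannot be told apart for them. Libraries with MI at P1 had codes 1059 and 1086, and those with MI at P7 codes 1077, 1088 and 1090. With code as a random block, the correlation within a code was 0.64. The 3-day sham P1 libraries carried 2 title codes, and the libraries of these codes stood apart from each other. Replicates 1 and 2 (code 1078) held 6252861 and 9264467 counts, and replicates 3 and 4 (code 1103) held 1555562 and 2647031. The endothelial miRNAs (miR-126a-3p and miR-126a-5p) summed to 120889 and 158425 CPM across the code 1078 libraries and 3913 and 6197 CPM across the code 1103 libraries. Calls at 3 days that rest on sham P1 are therefore given with and without each code. The ratio tests are not given by code.

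At 3 days after operation, miR-27b-3p was the most abundant member in every library by CPM. It had 14843, 15128, 12903 and 11028 CPM after MI at P7, 10657, 4034, 4304 and 11143 CPM after sham at P7, 10262, 8763, 10067 and 9528 CPM after MI at P1, and 10913, 9472, 8446 and 8276 CPM after sham at P1. Its paralog miR-27a-3p had 1823, 2208, 1607 and 1663 CPM after MI at P7, 1131, 998, 905 and 1246 CPM after sham at P7, 1298, 1439, 1462 and 1412 CPM after MI at P1, and 1781, 1187, 928 and 741 CPM after sham at P1. Both miR-27 members thus had their highest group mean after MI at P7.

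The miR-23 and miR-24 members were ordered the other way, with the highest group mean after MI at P1. MiR-23a-3p had 2066, 2257, 3407 and 2666 CPM after MI at P7, 2249, 1011, 1435 and 2875 CPM after sham at P7, 6479, 5105, 6441 and 6431 CPM after MI at P1, and 4941, 6628, 1430 and 2216 CPM after sham at P1. MiR-23b-3p had 1673, 1674, 2255 and 1858 CPM after MI at P7, 1504, 719, 865 and 1829 CPM after sham at P7, 4449, 2947, 4627 and 3920 CPM after MI at P1, and 3401, 4196, 1002 and 1634 CPM after sham at P1. Among sham P1 libraries the code 1103 pair was the low pair for both.

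MiR-24-3p had 1276, 1368, 1433 and 1404 CPM after MI at P7, 1130, 958, 898 and 1350 CPM after sham at P7, 5229, 4420, 4986 and 4570 CPM after MI at P1, and 3900, 4799, 991 and 1183 CPM after sham at P1. The code 1103 sham P1 libraries fell within the range of the sham P7 libraries for miR-24-3p, while the code 1078 libraries lay near those with MI at P1. Its group means were 1370 ± 67.9 CPM after MI at P7, 1084 ± 203 CPM after sham at P7, 4801 ± 372 CPM after MI at P1 and 2719 ± 1921 CPM after sham at P1 (SD, n = 4 each), and each pair of neighbours in the order of these means overlapped in its libraries.

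**Figure D1:**
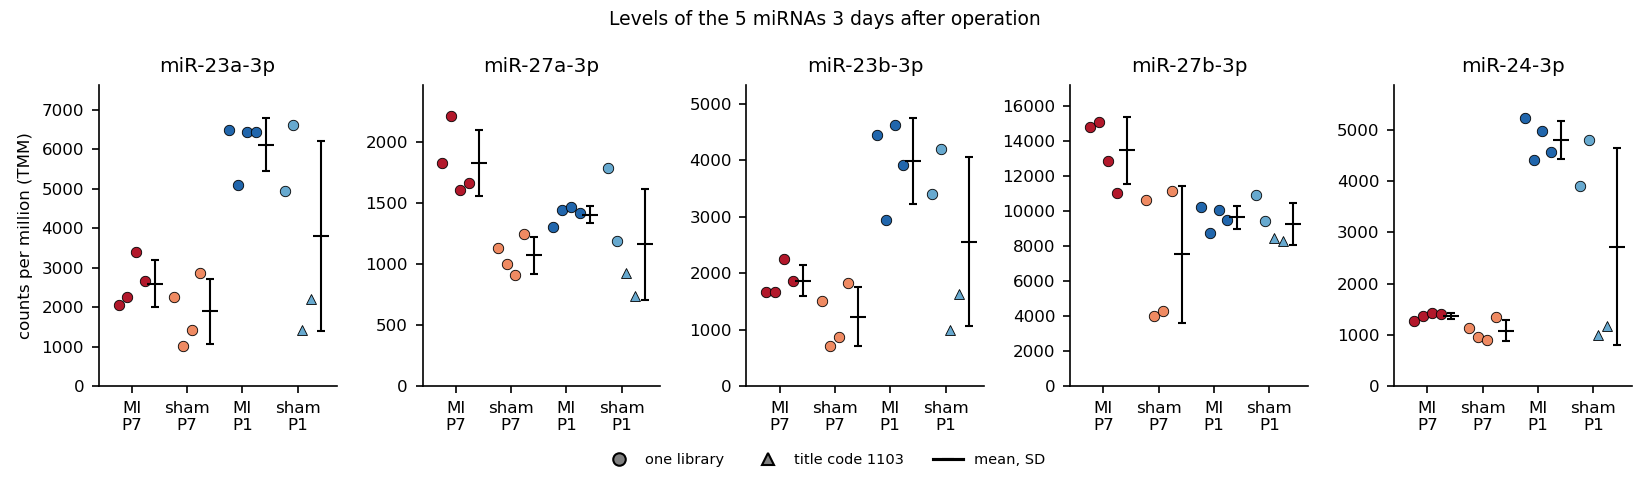
CPM (y axis, from 0) of each of the 5 miRNAs in the 16 libraries taken 3 days after operation, by group (x axis); circles are libraries, triangles the libraries with title code 1103, and black bars the mean and SD. miR-23a-3p, miR-23b-3p and miR-24-3p are high in all 4 MI P1 libraries and in the code 1078 sham P1 libraries, and low in the P7 and code 1103 libraries, while miR-27a-3p and miR-27b-3p do not follow that order.

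The age comparison among infarcted hearts gave the most calls at 3 days. MiR-24-3p was lower after MI at P7 than after MI at P1, by a log2 fold change of -1.81 ± 0.43 (SE; edgeR quasi-likelihood test, adjusted p = 0.0040). MiR-23a-3p (-1.23 ± 0.45, adjusted p = 0.0269) and miR-23b-3p (-1.10 ± 0.43, adjusted p = 0.0354) were lower as well. These 3 of 5 members passed an adjusted p of 0.05 in edgeR, against 62.6% of all 446 miRNAs tested in either direction and 30.3% in the lower direction. MiR-27a-3p had 0.38 ± 0.30 (adjusted p = 0.262) and miR-27b-3p 0.48 ± 0.34 (adjusted p = 0.221), and neither passed. None of the 5 members' groups overlapped, 3 of them lower and 2 higher after MI at P7, and neither did those of 73.1% of all miRNAs tested (39% lower and 34.1% higher).

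The miR-24-3p call held without each single library in turn, with adjusted p up to 0.0182. Those of miR-23a-3p and miR-23b-3p did not pass without replicate 1, 3 or 4 of MI P1 or replicate 1, 2 or 4 of MI P7 (adjusted p up to 0.105 and 0.125). MI P7 libraries held 1285821 to 1950058 counts and MI P1 libraries 5611717 to 13046126, and the groups shared no title code. Of the marker lists, the endothelial one had 1 of 2 miRNAs lower in this comparison and 0 higher, and its summed level was 9771 to 21411 CPM after MI at P7 against 83561 to 103944 CPM after MI at P1. With title code as a random block 1 of the 3 calls was kept, miR-24-3p (adjusted p = 0.0168), and those of miR-23a-3p (adjusted p = 0.0843) and miR-23b-3p (adjusted p = 0.126) were lost. The part of depth and endothelial RNA in the result was not tested. In these bulk samples, fewer cells of a type and less RNA per cell cannot be told apart.

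Other marker lists stood apart between the infarcted groups at 3 days as well. The fibroblast list summed to 6068 to 9799 CPM after MI at P7 against 17365 to 21881 CPM after MI at P1, and smooth muscle and pericytes to 5355 to 7493 CPM after MI at P7 against 19510 to 25235 CPM after MI at P1. The summed erythroid list stood the other way, at 7557 to 12893 CPM after MI at P7 against 932 to 1458 CPM after MI at P1. Most of that sum was miR-486a-5p, at 7492 to 12836 CPM against 580 to 1305 CPM. MiR-451a was lower after MI at P7 (23.1 to 64.9 against 124 to 261 CPM), and miR-144-3p and miR-144-5p overlapped. In the smooth muscle list miR-145a-5p was higher after MI at P7 (3208 to 4544 against 2556 to 3050 CPM). There miR-143-3p and miR-145a-3p were lower, and miR-143-5p overlapped. The part of these lists in the members' levels was not tested. By calls, cardiac muscle had 1 of 6 higher and 2 lower, smooth muscle and pericytes 0 of 4 higher and 2 lower, fibroblast 1 of 4 higher and 1 lower, leukocyte 1 of 6 higher and 2 lower, and erythroid 1 of 4 higher and 1 lower. MiR-133a-3p, a cardiac muscle miRNA, was higher after MI at P7 (1.43 ± 0.43, adjusted p = 0.0113), and miR-143-3p of smooth muscle was lower (-2.79 ± 0.64, adjusted p = 0.0034). Of the angiogenesis-linked list, 4 of 6 were higher and 2 lower. Of 4 tested miRNAs of other tissues, 1 was higher and 1 lower.

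In sham hearts miR-23a-3p, miR-23b-3p and miR-24-3p again had lower group means at P7 than at P1, with a wider spread at P1. The miR-27 members did not keep the order they had between infarcted hearts, as their estimates were now negative. MiR-24-3p was lower after sham at P7 than after sham at P1 (log2 fold change -1.33 ± 0.43, adjusted p = 0.0389), and it was the only one of the 5 members called, against 22% of all miRNAs in either direction and 18.2% lower. MiR-23a-3p had -1.01 ± 0.44 (adjusted p = 0.107), miR-23b-3p -1.06 ± 0.42 (adjusted p = 0.0764), miR-27a-3p -0.12 ± 0.30 (adjusted p = 0.815) and miR-27b-3p -0.30 ± 0.34 (adjusted p = 0.543). The median of all miRNAs tested was -0.53. The miR-24-3p call rested on the code 1078 libraries. Without them its log2 fold change was 0.0061 (adjusted p = 0.986), and without code 1103 it was -1.90, when miR-23a-3p (-1.52) and miR-23b-3p (-1.54) were called too. It was also lost without replicate 1 or 2 of sham P1 or replicate 1, 2 or 3 of sham P7, with adjusted p between 0.0798 and 0.161. The call was lost too with title code as a random block (-1.04, adjusted p = 0.649), with limma-voom (adjusted p = 0.0975) and with only the sham groups fitted (adjusted p = 0.344).

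Infarction itself moved no member past the threshold at 3 days, in either age group. In P1 hearts the log2 fold changes of MI against sham were 0.68 ± 0.44 for miR-23a-3p, 0.28 ± 0.30 for miR-27a-3p, 0.64 ± 0.42 for miR-23b-3p, 0.06 ± 0.34 for miR-27b-3p and 0.82 ± 0.42 for miR-24-3p, with adjusted p between 0.169 and 0.922. Thus 0 of 5 members were called by edgeR, against 18.4% of all miRNAs. At an unadjusted p under 0.05 edgeR had 0 members and 159 of all miRNAs tested. DESeq2 called 0 members and 122 miRNAs, and limma-voom 0 members and 11 miRNAs. Without the code 1103 libraries the estimates ran from -0.16 (miR-27a-3p, adjusted p = 0.812) to 0.08 (miR-24-3p, adjusted p = 0.922). Without code 1078, miR-24-3p (1.94 ± 0.29), miR-23a-3p (1.53 ± 0.38, adjusted p = 0.0012) and miR-23b-3p (1.39 ± 0.38, adjusted p = 0.0025) were called higher after MI.

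In P7 hearts the miR-27 members had the largest estimates. MiR-27b-3p averaged 13475 ± 1908 CPM after MI and 7535 ± 3893 CPM after sham (SD, n = 4 each), and its log2 fold change was 0.84 ± 0.34 (adjusted p = 0.168). Its sham replicates 1 and 4 lay at 10657 and 11143 CPM, next to the lowest MI library. MiR-27a-3p averaged 1826 ± 271 CPM after MI and 1070 ± 149 CPM after sham, and the log2 fold change was 0.77 ± 0.30 (adjusted p = 0.152), and its groups did not overlap, as was so for 20.6% of all miRNAs in either direction and 14.6% with MI higher. Both had an unadjusted p under 0.05 by edgeR, as had 89 of all miRNAs tested. Of the 5 members 0 passed by edgeR, against 5.61% of all miRNAs. DESeq2 called 0 members and 52 miRNAs, and limma-voom 0 members and 26 miRNAs. With the sham P1 libraries of code 1103 left out of the shared fit, 2 members passed, miR-27a-3p (adjusted p = 0.0264) and miR-27b-3p (adjusted p = 0.0496), and with code 1078 left out miR-27a-3p passed (adjusted p = 0.0254).

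MiR-23a-3p (0.46 ± 0.44), miR-23b-3p (0.60 ± 0.42) and miR-24-3p (0.34 ± 0.42) did not pass between MI and sham in P7 hearts (adjusted p 0.526 to 0.789). The difference between the infarct effects at P7 and at P1 passed for 0 of 5 members and 0% of the 446 miRNAs by edgeR, with 0 members and 71 miRNAs at an unadjusted p under 0.05. DESeq2 called 6 miRNAs there and limma-voom 0, and neither called a member. The estimates ran from -0.48 ± 0.59 for miR-24-3p to 0.78 ± 0.48 for miR-27b-3p. Without code 1078, where 2 members passed, they were -1.65 for miR-24-3p (adjusted p = 0.0007) and -1.10 for miR-23a-3p (adjusted p = 0.0430). Without code 1103 the direction turned, to 0.23 for miR-24-3p (adjusted p = 0.820), 0.44 for miR-23a-3p (adjusted p = 0.755) and 0.59 for miR-23b-3p (adjusted p = 0.709), and none passed by edgeR.

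Ratios within a library need no scaling between libraries, and at 3 days those of miR-27 over miR-23 did not overlap between the infarcted groups. The log2 ratio of miR-27a-3p over miR-23a-3p, both from the a cluster, was -0.49 ± 0.48 after MI at P7 and -2.12 ± 0.21 after MI at P1 (SD, n = 4 each). The difference was 1.62 (exact two-sided permutation p = 0.0286, the smallest that 4 against 4 allow). The ratio of miR-27b-3p over miR-23b-3p, from the b cluster, was 2.85 ± 0.36 after MI at P7 and 1.30 ± 0.20 after MI at P1, a difference of 1.56 (exact permutation p = 0.0286). Within both clusters, then, miR-27 stood higher relative to miR-23 in all 4 libraries of the older infarcted hearts. Of the 10 ratios tested in that comparison, 7 did not overlap between the groups. The levels of 73.1% of all miRNAs tested did not overlap there either. The ratios share members, and no share over ratios of other miRNAs was computed. After adjustment over the 40 ratio tests of this follow-up none passed by the exact permutation test, and the smallest adjusted p was 0.163.

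The miR-24-3p ratios moved the other way. Over miR-23a-3p the log2 ratio was -0.90 ± 0.26 after MI at P7 and -0.34 ± 0.12 after MI at P1, and over miR-23b-3p -0.44 ± 0.15 after MI at P7 and 0.29 ± 0.21 after MI at P1. The summed a members over the summed b members had a log2 ratio of -1.79 ± 0.25 after MI at P7 and -0.86 ± 0.06 after MI at P1, with no overlap. The ratios of single paralogs overlapped between these groups. MiR-23a-3p over miR-23b-3p differed by -0.17 (exact permutation p = 0.171) and miR-27a-3p over miR-27b-3p by -0.10 (exact permutation p = 0.40). The summed ratio mixes miR-23 with miR-27, so it does not by itself show a shift between the clusters. The paralog miR-23 strands kept a near-constant proportion, but how reads were assigned between them is not given. MiR-23a-3p made up 55.2% to 63.4% of miR-23a-3p and miR-23b-3p together over the 16 libraries, while miR-27a-3p made up 8.22% to 19.8% of the miR-27 pair. In all other comparisons at 3 days the groups overlapped for each of the 10 ratios, with all libraries kept. The sham P1 group spans 2 title codes, and overlap without either code is not given. Its linear ratio of miR-23a-3p over miR-23a-5p, for example, ran from 18.7 to 894. That ratio was 787 to 1005 after MI at P1 and 8.33 to 50.9 after sham at P7.

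**Figure D2:**
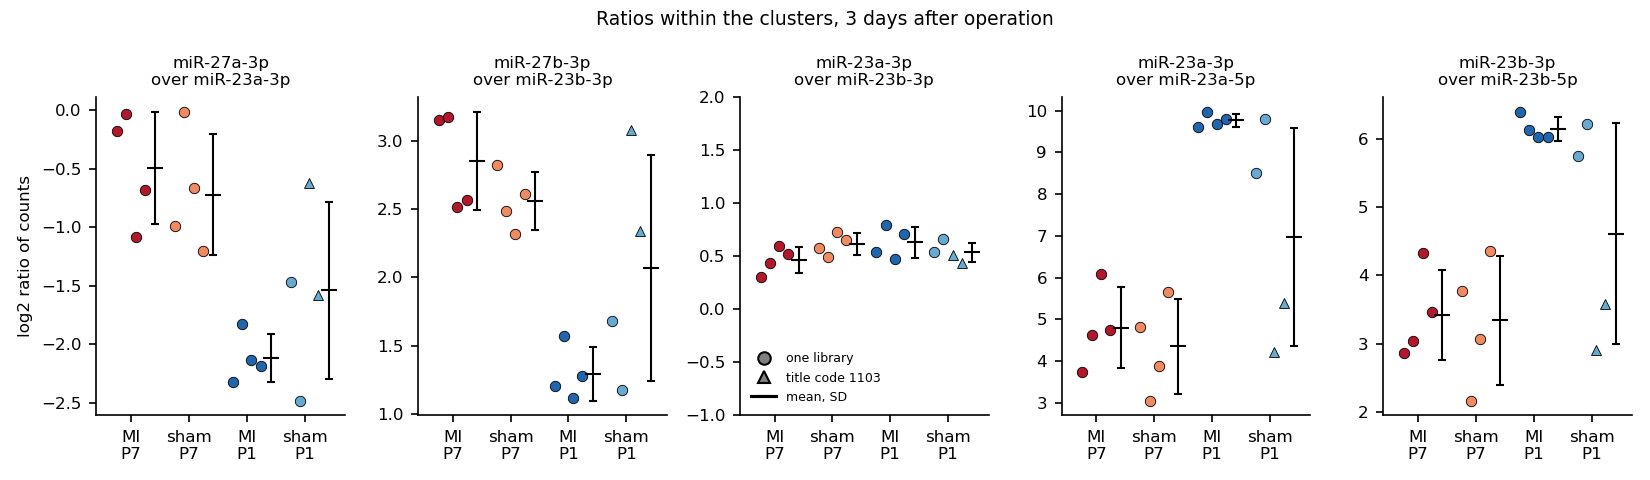
Log2 ratios of raw counts (y axis, its range differing by panel) in each of the 16 libraries at 3 days, by group (x axis), with circles for libraries, triangles for title code 1103 and black bars for mean and SD. The miR-27 over miR-23 ratios and the 3p over 5p ratios of miR-23a and miR-23b separate the MI P1 libraries from the MI P7 libraries, while miR-23a-3p over miR-23b-3p stays between 0.30 and 0.79.

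The opposite strands showed the same split among the 3-day libraries. MiR-23a-5p had 155, 90.7, 49.8 and 98.2 CPM after MI at P7, 79.7, 121, 96.6 and 56.2 CPM after sham at P7, and 8.15, 5.03, 7.73 and 7.15 CPM after MI at P1. In sham P1 hearts it had 13.5 and 7.32 CPM with code 1078 and 76.2 and 52.7 CPM with code 1103. It was higher after MI at P7 than after MI at P1 by 3.802 ± 0.63 on the log2 scale (adjusted p = 0.0013), while its partner strand miR-23a-3p was lower. The raw counts of miR-23a-5p were low, at 68 to 134 after MI at P7 and 34 to 54 after MI at P1. They were 88 to 96 after sham at P7 and 39 to 98 after sham at P1. MI P7 libraries held 1285821 to 1950058 counts in all, and MI P1 libraries 5611717 to 13046126. The part of depth in the miR-23a-5p levels and ratios was not tested. The log2 ratio of miR-23a-3p over miR-23a-5p was 4.80 ± 0.97 after MI at P7 and 9.77 ± 0.15 after MI at P1. That of miR-27a-3p over miR-27a-5p overlapped between these groups, at 4.38 ± 0.38 after MI at P7 and 4.75 ± 0.07 after MI at P1.

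MiR-23b-5p was also higher after MI at P7 (log2 fold change 1.66 ± 0.38, adjusted p = 0.0031), with means of 179 ± 51.1 CPM after MI at P7 and 56.3 ± 12.0 CPM after MI at P1. MiR-27b-5p was lower (-2.31 ± 0.81, adjusted p = 0.0232), with 3.38 ± 1.63 CPM after MI at P7 and 17.3 ± 3.40 CPM after MI at P1. That call rests on 2 to 6 raw counts in the MI P7 libraries, against 82 to 138 in the more deeply counted MI P1 libraries. MiR-27a-5p (0.80 ± 0.36, adjusted p = 0.0571) did not pass. The antisense strand miR-3074-5p was higher (1.38 ± 0.53, adjusted p = 0.0338), at 12.3 ± 2.93 CPM after MI at P7 and 4.67 ± 0.49 CPM after MI at P1. Its raw counts were 12 to 18 after MI at P7 and 20 to 47 after MI at P1. At this follow-up miR-24-2-5p had at most 7 counts and miR-24-1-5p at most 3 in a library, too few to separate the miR-24 loci.

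At 21 days after operation miR-27b-3p was again the most abundant member. It had 56598, 38675 and 46278 CPM after MI at P7, 41776, 38114 and 43938 CPM after sham at P7, 36631, 41617 and 42276 CPM after MI at P1, and 37734, 38482 and 40281 CPM after sham at P1. MiR-27a-3p had 3553, 2766 and 4352 CPM after MI at P7, 2951, 3167 and 3102 CPM after sham at P7, 2375, 2212 and 2480 CPM after MI at P1, and 2632, 2765 and 2575 CPM after sham at P1. The MI P7 group had the widest spread for both, and its replicate 2 stood lowest.

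The same library stood lowest among MI P7 hearts for the other 3 members. MiR-23a-3p had 2032, 1143 and 1837 CPM after MI at P7, 1236, 1352 and 1121 CPM after sham at P7, 1067, 1040 and 1378 CPM after MI at P1, and 1042, 1141 and 1189 CPM after sham at P1. MiR-23b-3p had 1987, 927 and 1500 CPM after MI at P7, 846, 976 and 849 CPM after sham at P7, 776, 817 and 1000.1 CPM after MI at P1, and 844, 978 and 907 CPM after sham at P1. Replicates 1 and 3 after MI at P7 thus lay above all other libraries for both miR-23 members.

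MiR-24-3p had 951, 909 and 2219 CPM after MI at P7, 622, 1073 and 668 CPM after sham at P7, 565, 566 and 616 CPM after MI at P1, and 704, 907 and 880.1 CPM after sham at P1. Its level in MI P7 replicate 3 was above that of every other library of the follow-up.

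**Figure D3:**
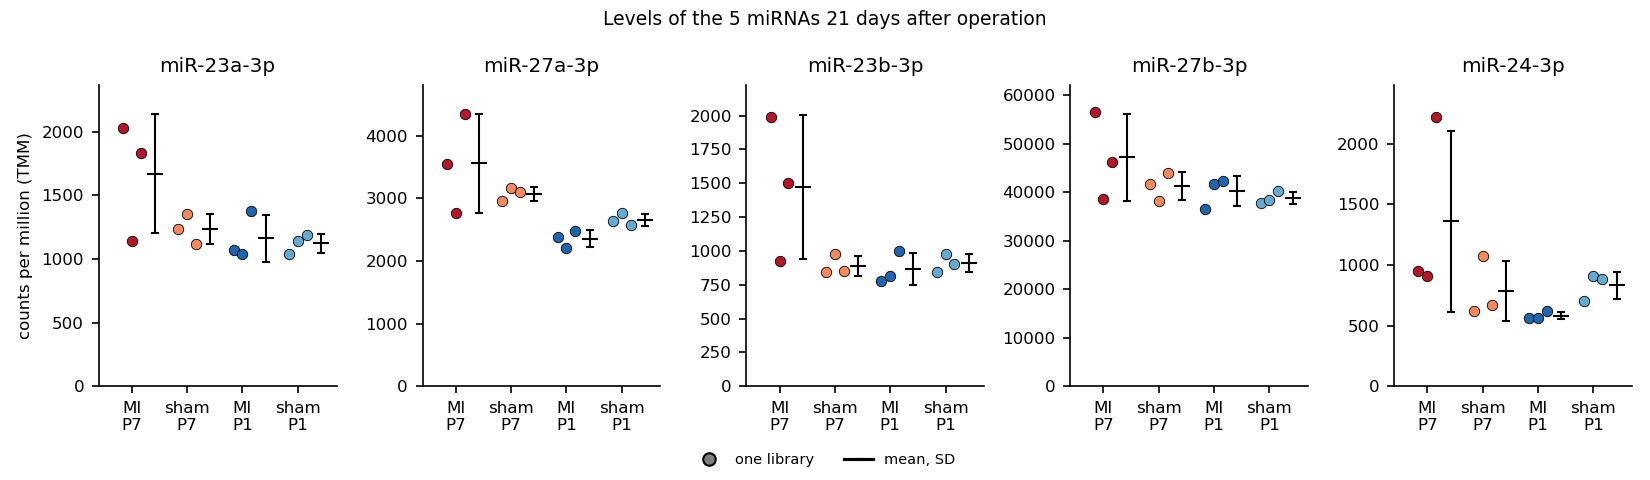
CPM (y axis, from 0) of each of the 5 miRNAs in the 12 libraries taken 21 days after operation, by group (x axis); points are libraries and black bars the mean and SD. The MI P7 group spreads most for every member, with replicate 2 inside the range of the other groups in all 5 panels.

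Among P7 hearts at 21 days, miR-23b-3p was higher after MI, with 1471 ± 531 CPM after MI and 890.4 ± 73.8 CPM after sham (SD, n = 3 each). Its log2 fold change was 0.72 ± 0.23 (edgeR adjusted p = 0.0378). It was the only one of 5 members called, against 22.1% of all 598 miRNAs in either direction and 13.2% higher. MiR-24-3p had 0.79 ± 0.31 (adjusted p = 0.0857), miR-23a-3p 0.43 ± 0.21 (adjusted p = 0.141), miR-27a-3p 0.21 ± 0.17 (adjusted p = 0.379) and miR-27b-3p 0.19 ± 0.17 (adjusted p = 0.424). The median over the members was 0.43 and over all miRNAs tested 0.03.

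The miR-23b-3p call did not hold without replicate 1 of MI P7 (0.42, adjusted p = 0.155) or without replicate 1, 2 or 3 of sham P7 (adjusted p 0.0729 to 0.104). It was lost too with limma-voom (adjusted p = 0.0613) and with only the P7 groups fitted (adjusted p = 0.131). Without MI P7 replicate 2, 3 members passed, miR-23b-3p (0.99), miR-24-3p (1.01) and miR-23a-3p (0.66, adjusted p = 0.0108). MiR-24-3p had 0.30 without MI P7 replicate 3, and passed without sham P7 replicate 2 (1.10, adjusted p = 0.0436). Within sequencing lane 3, miR-23b-3p had 1987 and 1500 CPM after MI and 976 and 849 CPM after sham, and within lane 5 it had 927 CPM after MI and 846 CPM after sham. With total-count scaling all 5 members passed as higher, and the calls over all miRNAs became 151 higher and 16 lower, from 79 higher and 53 lower with TMM.

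The fibroblast miRNAs were higher in the same comparison. All 4 of the list (miR-21a-5p, miR-199a-3p, miR-199a-5p and miR-214-3p) were higher after MI at P7, with a median log2 fold change of 1.75. Their summed level was 45208, 19411 and 34535 CPM in MI P7 replicates 1, 2 and 3, and 10385 to 11419 CPM after sham at P7. Its order over the MI P7 libraries was that of miR-23a-3p and miR-23b-3p. The leukocyte list had that order too (3868, 3050 and 3198 CPM). Cardiac muscle (56742, 93552 and 78037 CPM) and other tissues had the reverse. The endothelial, smooth muscle and pericyte, erythroid and angiogenesis-linked lists had neither. Cardiac muscle miRNAs, of which miR-133a-3p fell (-1.01 ± 0.21, adjusted p = 0.0084) and 5 of 6 were not called, summed to 56742 to 93552 CPM after MI and 135134 to 158760 CPM after sham. The part of any of these lists in the members' levels was not tested.

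Of the other lists in P7 hearts at 21 days, the endothelial one had 1 of 2 lower (miR-126a-3p, -0.78 ± 0.21, adjusted p = 0.0195). Smooth muscle and pericytes had 1 of 4 lower, leukocyte 2 of 6 higher and 1 lower, and angiogenesis-linked 1 of 6 higher and 1 lower. None of 4 erythroid miRNAs and none of 2 tested miRNAs of other tissues were called by edgeR.

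In P1 hearts at 21 days none of the members changed past the threshold. The log2 fold changes of MI against sham were 0.05 ± 0.21 for miR-23a-3p, -0.17 ± 0.17 for miR-27a-3p, -0.07 ± 0.23 for miR-23b-3p, 0.05 ± 0.17 for miR-27b-3p and -0.51 ± 0.31 for miR-24-3p, with adjusted p of 0.729 or more. By edgeR 0 of 5 were called, against 0.502% of all miRNAs. At an unadjusted p under 0.05 edgeR had 0 members and 43 of all miRNAs tested. DESeq2 and limma-voom each called 0 members and 3 miRNAs. MiR-24-3p, at 583 ± 29.4 CPM after MI and 830.2 ± 110 CPM after sham, and miR-27a-3p, at 2356 ± 135 CPM after MI and 2657 ± 97.6 CPM after sham, did not overlap between the groups (SD, n = 3 each). Nor did 17.4% of all miRNAs in either direction, and 10% with MI lower.

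The infarct effect at P7 minus that at P1 was positive for all 5 members at 21 days and passed for none. It was 1.30 ± 0.44 for miR-24-3p (edgeR adjusted p = 0.0782), 0.80 ± 0.32 for miR-23b-3p (adjusted p = 0.136), and between 0.14 and 0.39 for the other 3. Of the members 0 passed by edgeR, against 9.87% of all miRNAs. At an unadjusted p under 0.05 edgeR had 2 members and 166 of all miRNAs tested. DESeq2 called 1 member and 91 miRNAs, and limma-voom 0 members and 53 miRNAs. The miR-24-3p value was 0.80 without MI P7 replicate 3. It passed without MI P7 replicate 1 (1.47, adjusted p = 0.0434), MI P7 replicate 2 (1.52, adjusted p = 0.0182) or sham P7 replicate 2 (1.59, adjusted p = 0.0491).

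Infarcted P7 hearts also differed from infarcted P1 hearts at 21 days, now in the higher direction. MiR-24-3p averaged 1360 ± 744 CPM after MI at P7 and 583 ± 29.4 CPM after MI at P1, and the log2 fold change was 1.22 ± 0.31 (edgeR adjusted p = 0.0216). MiR-27a-3p averaged 3557 ± 793 CPM after MI at P7 and 2356 ± 135 CPM after MI at P1, and the log2 fold change was 0.59 ± 0.17 (adjusted p = 0.0349). MiR-23b-3p had 0.77 ± 0.23 (adjusted p = 0.0426). These 3 of 5 compare with 13.5% of all miRNAs called in either direction and 8.36% higher. MiR-23a-3p (0.52 ± 0.21, adjusted p = 0.0984) and miR-27b-3p (0.23 ± 0.17, adjusted p = 0.394) did not pass.

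For miR-24-3p and miR-27a-3p these groups did not overlap, as for 31.3% of all miRNAs in either direction and 14.5% higher. The miR-27a-3p call was lost in 5 of the 6 fits that left out a library of these groups, all but that without MI P7 replicate 2 (adjusted p up to 0.130). The miR-23b-3p call was lost in 4 of 6, without MI P7 replicate 1 (0.45, adjusted p = 0.1604) or any MI P1 replicate. The miR-24-3p call was lost in 2 of 6, without MI P1 replicate 1 (adjusted p = 0.0681) or 2 (adjusted p = 0.0718), and its value was 0.73 (adjusted p = 0.0365) without MI P7 replicate 3. Without MI P7 replicate 2, 4 members passed. With only the infarcted groups fitted none passed by edgeR, and miR-24-3p had an adjusted p of 0.0822. With the lane as a covariate no member passed by edgeR, and miR-24-3p had 1.04 (adjusted p = 0.0643). In lane 5 miR-24-3p had 909 CPM after MI at P7 and 566 and 616 CPM after MI at P1, and in lane 3 it had 951 and 2219 CPM after MI at P7 and 565 CPM after MI at P1. Each group at 21 days had a single title code, so code and group cannot be told apart. The fibroblast list had all 4 miRNAs higher here too, with summed levels of 19411 to 45208 CPM after MI at P7 and 10434 to 12520 CPM after MI at P1. Cardiac muscle had 1 of 6 lower, with summed levels of 56742 to 93552 CPM after MI at P7 and 122866 to 142841 CPM after MI at P1. Smooth muscle and pericytes had 1 of 4 lower, leukocyte 1 of 6 higher and 1 lower, and angiogenesis-linked 2 of 6 higher. The part of these lists in the members' levels was not tested.

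Sham hearts of the older and younger operation day gave no call at 21 days. The log2 fold changes of sham P7 against sham P1 were between -0.08 and 0.21, with adjusted p of 0.703 or more. The groups of miR-27a-3p alone did not overlap (0.21), as for 26.9% of all miRNAs in either direction and 14.2% higher. Of the members 0 passed by edgeR, 0 had an unadjusted p under 0.05 and 0 were called by DESeq2 or limma-voom. Over all 598 miRNAs 0% were called by edgeR, 72 had an unadjusted p under 0.05, and DESeq2 called 14. The comparisons share groups (the same MI P7 libraries enter both comparisons that called members), so they are not independent of each other.

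**Figure D4:**
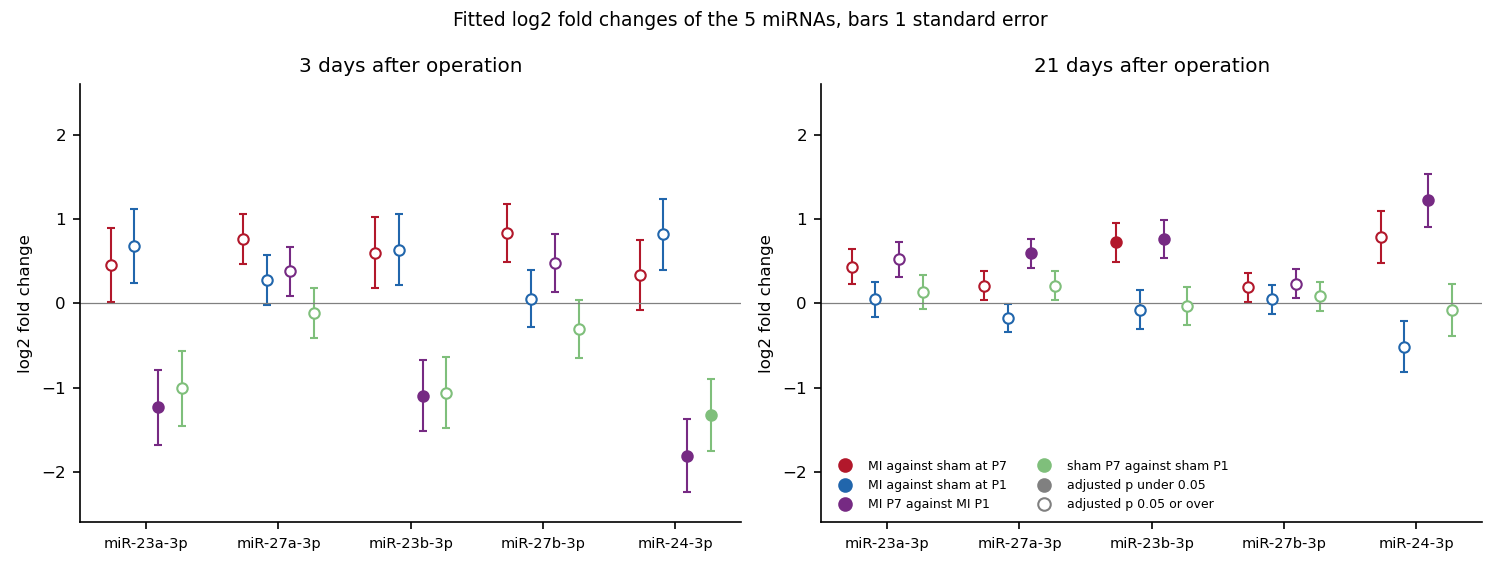
Log2 fold changes (y axis) of the 5 miRNAs (x axis) from the fits at 3 days (left) and 21 days (right), for 4 comparisons by colour, with bars of 1 SE; filled points have an adjusted p under 0.05. At 3 days the filled points are miR-23a-3p, miR-23b-3p and miR-24-3p, all lower at P7, and at 21 days they are miR-27a-3p, miR-23b-3p and miR-24-3p, all higher after MI at P7.

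Ratios at 21 days were tested with 3 libraries a group, where the smallest exact p is 0.10, so none could pass. The log2 ratio of miR-23a-3p over miR-23b-3p was 0.21 ± 0.15 after MI at P7, 0.47 ± 0.07 after sham at P7, 0.42 ± 0.07 after MI at P1 and 0.31 ± 0.08 after sham at P1. It was lower after MI at P7 than after sham at P7 by 0.26 and than after MI at P1 by 0.21, with no overlap (exact permutation p = 0.10 for both). The sham groups did not overlap in this ratio either, with sham P7 higher than sham P1 by 0.17 (exact permutation p = 0.10). MiR-27b-3p over miR-23b-3p was 5.05 ± 0.29 after MI at P7 and 5.54 ± 0.14 after MI at P1, also without overlap. Over the 12 libraries miR-23a-3p made up 50.6% to 59.4% of the miR-23 pair, and miR-27a-3p 5.05% to 8.60% of the miR-27 pair. Of the 13 ratios tested per comparison, 1 did not overlap in P7 hearts with and without infarct, 3 in P1 hearts with and without infarct, 1 between sham hearts and 5 between infarcted hearts. By level, 17.4% of all miRNAs did not overlap in P1 hearts, 26.9% between sham hearts and 31.3% between infarcted hearts. That share is not given for P7 hearts with and without infarct, where the levels of every member overlapped. No share over ratios of other miRNAs was computed.

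The 5p strands, which tell the miR-24 loci apart, were well counted at 21 days. MiR-24-2-5p of the a cluster had 749, 588 and 643 CPM after MI at P7, 758, 596 and 629 CPM after sham at P7, 590.3, 618 and 635 CPM after MI at P1, and 593, 532 and 618 CPM after sham at P1. MiR-24-1-5p of the b cluster had 30.1, 28.2 and 91.7 CPM after MI at P7, 32.7, 27.7 and 25.7 CPM after sham at P7, 21.4, 28.7 and 27.4 CPM after MI at P1, and 28.04, 21.4 and 31.1 CPM after sham at P1. MI P7 replicate 3, the library with the high miR-24-3p, was the high one for miR-24-1-5p but not for miR-24-2-5p. That library also stood apart over all miRNAs. Its counts differed from those of replicates 1 and 2 by a chi-square per degree of freedom of 4225 and 4029. The value was 1997 between replicates 1 and 2, and at most 546 within the other groups at 21 days. Its smooth muscle and pericyte list summed to 112437 CPM, against 46162 and 61295 CPM in replicates 1 and 2.

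The share of miR-24-2-5p among both 5p strands was 87.5% in that library (13144 of 15019 counts, 95% exact Clopper-Pearson interval 87.0% to 88.0%), and 95.2% to 96.5% in the other 11 libraries. These intervals cover counting error only. The same library had the lowest miR-27b-5p level of the follow-up, 30.0 CPM, against 48.1 to 79.1 CPM in the other 11. None of the 5p strands passed in any comparison at 21 days by edgeR, and miR-24-1-5p had 0.95 ± 0.37 between MI P7 and MI P1 (adjusted p = 0.0975).

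**Figure D5:**
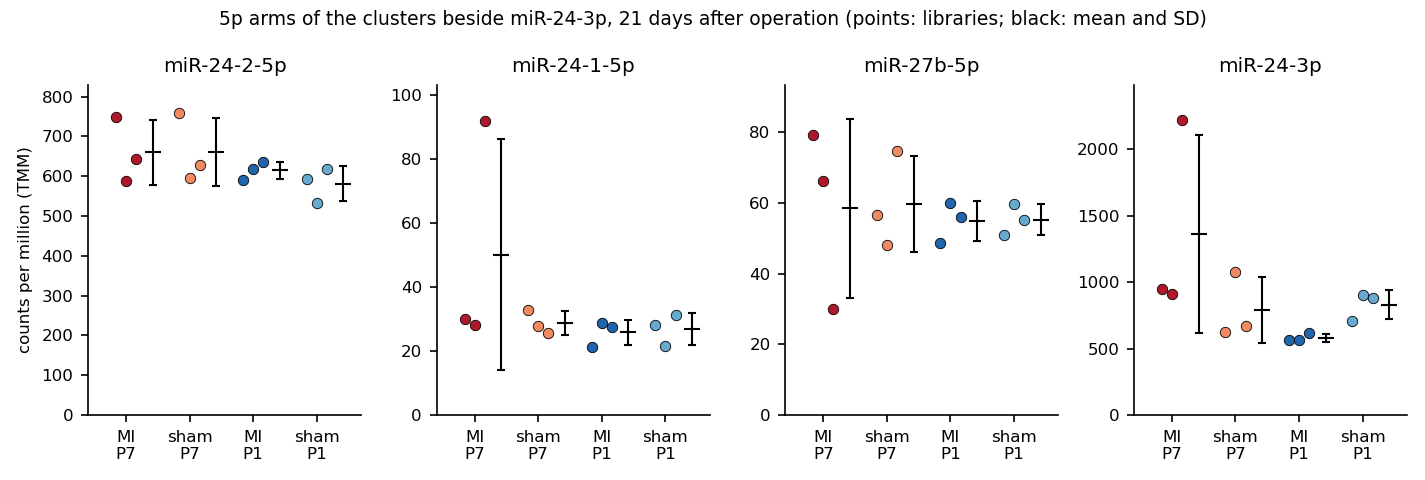
CPM (y axis, from 0, its range differing by panel) of miR-24-2-5p, miR-24-1-5p, miR-27b-5p and miR-24-3p in the 12 libraries at 21 days, by group (x axis); points are libraries and black bars mean and SD. MI P7 replicate 3 is the highest library for miR-24-1-5p (91.7 CPM) and miR-24-3p (2219 CPM) and the lowest for miR-27b-5p (30.0 CPM).

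The miRNAs whose levels resembled the members' most were ranked by Pearson r of log2 CPM over all libraries of a follow-up, among those tested with a mean of at least 10 CPM. These are descriptions over libraries that share groups, kit and depth. How reads were assigned between paralogs is not given, which bears on the r between them. At 3 days (16 libraries, 347 candidates) miR-23a-3p and miR-23b-3p were each other's nearest, with r of 0.99, followed by miR-382-5p and miR-224-5p for miR-23a-3p and by miR-28a-3p and miR-382-5p for miR-23b-3p. MiR-24-3p was nearest to miR-99a-5p (0.98), miR-379-5p and miR-369-5p. The r of miR-27a-3p with its cluster partner miR-23a-3p was 0.38 (place 85 of 347), and that of miR-27b-3p with miR-23b-3p was 0.50 (place 36 of 347). MiR-27a-3p was nearest to miR-21a-3p (0.80), miR-29b-3p and miR-142a-3p, and miR-27b-3p to miR-140-3p (0.89), let-7b-3p and miR-29a-3p.

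At 21 days (12 libraries, 282 candidates) miR-23a-3p and miR-23b-3p had r of 0.95 with each other, and next came miR-34a-5p (0.89) and miR-195a-5p for miR-23a-3p and miR-21a-3p (0.92) and miR-221-3p for miR-23b-3p. MiR-27b-3p was nearest to miR-23b-3p (0.85), miR-23a-3p and miR-21a-5p, and miR-27a-3p to miR-34a-5p (0.95), miR-29b-3p and miR-195a-5p. MiR-24-3p was nearest to miR-152-3p (0.91), let-7b-5p and miR-3068-5p.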

How the data were processed

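Libraries were made from TRIzol-extracted RNA with the QIAseq miRNA kit at 3 days and the TruSeq Small RNA kit at 21 days, per the labels' protocols. The authors deposited whole-number counts per pair of hairpin and mature miRNA for each library. Per the submitters' processing notes Bowtie2 2.2.2, edgeR and the build GRCm38 were used, and no source used here states the strand, mismatch and molecular identifier settings.

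From these counts, the highest count over hairpins was kept per mature name, libraries were scaled by TMM, and names passing filterByExpr (minimum count 10) were tested with edgeR 4.0.16 (robust quasi-likelihood F test, R 4.3.3), with the 4 groups of a follow-up in 1 fit and Benjamini-Hochberg adjustment over 446 names at 3 days and 598 at 21 days. Follow-ups were fitted apart. Log2 ratios of raw counts (0.5 added to both) were compared by exact two-sided permutation tests, adjusted over the follow-up. Ratios with an arm at 0 counts in any library were not tested. Scripts were tested on simulated data. Libraries of a group differed by more than counting noise in every pair.

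Alternatives covered scaling, filter, tool (DESeq2 1.42.0, limma 3.58.1 voom), hairpin sums, only the groups compared, lane, title code and each library left out. Named miRNAs were the 5 members, the other strands of both clusters, those of the marker lists and the 3 most alike. The members and lists were chosen with earlier results of these data known. Sequences came from RefSeq and positions from GENCODE M21. Intervals cover counting error only.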

Additional observations from a re-analysis of the deposited data

Results flagged for a closer look

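Of the 20 sets of 4 libraries at 3 days, 1 held a library far from its group. MiR-23a-3p in MI P1 replicate 2 had 5105 CPM, the lowest of its group, where the other 3 libraries had between 6431 and 6479 CPM. It was also the most deeply counted library of the follow-up, with 13046126 counts. Chance gives about 1 such library in 20 sets. Sets of 3 libraries (20 at 21 days) were not tested this way.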

How the results depend on the processing

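No paired analysis was possible because the labels give no replicate numbers, which were assigned in accession order. The number of members called moved with the setting, as follows, and the cause was not tested. In the main fits at 3 days, MI against sham called 18.4% (P1) and 5.61% (P7) of all miRNAs. The difference called 0%, the sham comparison 22% and MI P7 against MI P1 62.6%. At 21 days MI against sham at P7 called 22.1%, the difference 9.87% and MI P7 against MI P1 13.5%. The counts below are not set against the share under each setting, so they are no result about the members. At 3 days, MI against sham at P1 (0) became 3 without title code 1078. MI against sham at P7 (0) became 2 with total-count scaling, 2 without code 1103 and 1 without code 1078. The difference of infarct effects (0) became 2 without code 1078. Sham P7 against sham P1 (1) became 0 with DESeq2 size factors, limma-voom, only the groups compared, no code 1078 or title code as a random block, and 3 with total-count scaling or without code 1103. MI P7 against MI P1 (3) became 5 with only the groups compared or without code 1078, and 1 with title code as a random block. At 21 days, MI against sham at P7 (1) became 5 with total-count scaling, 2 with no filter, and 0 with limma-voom or only the groups compared. The difference of effects (0) became 3 with total-count scaling and 1 with no filter or DESeq2. MI P7 against MI P1 (3) became 0 with only the groups compared or lane as a covariate.

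Leaving out 1 library at a time gave 0 to 1 (MI against sham at P1), 0 to 3 (sham P7 against sham P1) and 1 to 3 (MI P7 against MI P1) members at 3 days, and 0 to 3 (MI against sham at P7), 0 to 2 (difference) and 0 to 4 (MI P7 against MI P1) at 21 days; the other counts, and the count of 0 ratio tests passing, did not move.

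Estimates that changed sign were all uncalled under that setting. Without code 1103 the 3-day MI against sham at P1 gave -0.16 for miR-27a-3p, -0.0016 for miR-23b-3p and -0.15 for miR-27b-3p, and the difference of effects 0.44 for miR-23a-3p, 0.59 for miR-23b-3p and 0.23 for miR-24-3p. Without code 1078 the sham comparison at 3 days gave 0.047 for miR-23a-3p, 0.38 for miR-27a-3p and 0.0061 for miR-24-3p, the last of these called in the full fit; with only the groups compared miR-27a-3p gave 0.16. Unfiltered, MI P7 against MI P1 at 3 days gave -0.28 for miR-27a-3p and -0.18 for miR-27b-3p. With total-count scaling the 3-day difference gave 0.11 for miR-23b-3p; at 21 days MI against sham at P1 gave -0.15 for miR-23a-3p and -0.14 for miR-27b-3p, and the sham comparison -0.091 for miR-23a-3p, -0.016 for miR-27a-3p and -0.14 for miR-27b-3p. With lane as a covariate miR-23b-3p gave 0.11 (MI against sham at P1) and 0.055 (sham), and miR-24-3p 0.044 (sham). Leaving out 1 library gave, at 3 days, -0.16 to 0.30 for miR-27b-3p (MI against sham at P1), -0.62 to 0.17 for miR-23a-3p and -0.38 to 0.36 for miR-23b-3p (difference), and -0.32 to 0.25 for miR-27a-3p (sham), and at 21 days -0.067 to 0.14 for miR-23a-3p and -0.17 to 0.0030 for miR-23b-3p (MI against sham at P1), -0.025 to 0.29 for miR-27b-3p (difference), and -0.092 to 0.025 for miR-23b-3p and -0.35 to 0.069 for miR-24-3p (sham).

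Of 440 estimates under other settings, 373 kept direction and side of the threshold. Total-count scaling moved the median log2 fold change of all miRNAs to 0.47 (MI against sham at P7, 3 days), -0.82 (sham, 3 days) and 0.38 (MI against sham at P7, 21 days), from -0.01, -0.53 and 0.03 with TMM. Low counts limit some 5p strands. MiR-24-1-5p and miR-24-2-5p had at most 7 counts in a library at 3 days, and miR-23a-5p and miR-23b-5p at most 16 at 21 days. At 3 days miR-27b-5p had 2 to 6 counts in the MI P7 libraries and 0 to 9 in the sham P7 libraries. Over all 3-day libraries miR-3074-5p had 6 to 51 counts and miR-23a-5p 34 to 134. The 21-day libraries were the more deeply counted, and the follow-ups used different kits. The cause of the low counts was not tested.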
